A study of Mus musculus with 8 samples.

Results

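The 34 genes described here make up the protein folding and secretion machinery of the endoplasmic reticulum (ER): the sensors of the unfolded protein response, the ER chaperones and disulfide isomerases, the ER-associated degradation (ERAD) machinery, and the channel and enzymes that bring new proteins into the ER. They were chosen by exact gene symbol, and each gene was represented by the probe set with the highest mean intensity over all arrays. Of the 34 genes, 33 had a probe set of their own among the 45101 probe sets of the array, and 32 were bright enough to be tested among 19814 probe sets. Sec61g was carried only by a probe set shared with other genes and was not measured, and Derl3 fell below the filter on dim probe sets. Transcript levels were measured in primary hepatocytes of the mouse strain background C57BL6/129SVJ, either wild type (WT) or lacking transglutaminase 2 (KO), a protein-crosslinking enzyme encoded by Tgm2. Cells of each genotype were kept for 15 h without ethanol (untreated) or with 100 mM ethanol. Each of the 4 groups had 2 arrays, A and B, which limits the precision of every value, and the labels do not say whether A and B came from separate animals or cultures. The study's title places the experiment in work on liver injury and on the crosslinking of the transcription factor Sp1.

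Secreted and membrane proteins enter the ER through the Sec61 channel, lose their signal peptide, fold with the help of Hsp70, Hsp90 and lectin chaperones, and are passed back to the cytosol for destruction when folding fails. When unfolded proteins accumulate, the membrane sensors encoded by Ern1, Eif2ak3 and Atf6 raise the transcription of chaperone and ERAD genes and slow protein synthesis. Hepatocytes secrete most plasma proteins and therefore hold abundant ER, and ER stress is a known feature of alcohol-exposed liver.

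Many of these genes carry a known response element for the ER stress transcription factors ATF6 and XBP1, and the sequences below show where it lies in members that are described with their values later. The 250 bases before the RefSeq transcription start (build GRCm38.p6) were searched on both strands, and 28 of the 34 genes had an entry in the table. The ER stress response element, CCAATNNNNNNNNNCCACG, was found before 9 of these 28 genes, against 0.113% of the 32851 mouse promoters in the table. Those genes were Hspa5, Hsp90b1 (with 2 copies), Dnajc3, Creld2, Calr, Canx, Pdia6, Syvn1 and Derl3. The shorter element II, ATTGG and CCACG with 1 base between them, was found before Herpud1 alone among the members and in 0.0304% of all promoters. Both elements hold CCACG, but no member carried both forms. The element TGACGTGG was found before none of the 28 genes and in 0.563% of all promoters, and the GC box GGGCGG before 18 of the 28 and in 32.7% of all promoters. The stretches below are written 5′ to 3′ on the strand of the gene, with the fixed letters of the element in capitals and 10 further bases on either side. The first 5 genes passed the test for ethanol in WT cells, and Canx, which did not, is given for comparison.
Hspa5: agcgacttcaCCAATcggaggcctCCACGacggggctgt
Dnajc3: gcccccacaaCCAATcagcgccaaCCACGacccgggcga
Pdia6: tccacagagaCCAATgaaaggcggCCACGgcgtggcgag
Syvn1: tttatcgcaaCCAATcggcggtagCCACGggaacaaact
Herpud1: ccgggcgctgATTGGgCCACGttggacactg
Canx: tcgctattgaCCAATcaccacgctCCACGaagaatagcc
These stretches lie at chr2:34772015-34772053 (plus strand) for Hspa5, chr14:118937817-118937855 (plus) for Dnajc3 and chr12:17266481-17266519 (plus) for Pdia6. The others lie at chr19:6046522-6046560 (plus) for Syvn1, chr8:94386367-94386397 (plus) for Herpud1 and chr11:50325790-50325828 (minus) for Canx. The element ended 46 bases before the start of Hspa5, 86 before Dnajc3, 79 before Pdia6, 25 before Syvn1, 41 before Herpud1 and 126 before Canx. A match describes letters in this window and does not show that a factor bound there.

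Some properties of the arrays bear on all comparisons. Tgm2 read 16700 to 16800 on the 4 WT arrays and 368 to 704 on the 4 KO arrays, so genotype labels and data matched. Untreated KO A and B and ethanol KO A were dim before normalisation, with trimmed mean intensities of 98.47 to 103.1 against 198.7 to 297.4 on the other arrays. On ethanol WT B, 5410 probe sets had no usable value and were left out of all arrays. The title and the treatment text of both ethanol B arrays disagree on whether ethanol was added (the title gives 100 mM), and the title was followed. Over the 39627 usable probe sets, dim ones included, ethanol KO A and B correlated at 0.971. This was below the 0.977 of ethanol KO B with either untreated KO array. Each other pair of same-group arrays correlated at 0.98 to 0.983. The ratio of the 3′ to the 5′ control probe sets for pyruvate carboxylase, a sign of RNA integrity, stood at 10 and 16.8 in WT cells without ethanol and at 26.7 and 44.5 with it, against 8.69 to 10.6 without and 4.91 to 5.45 with ethanol in KO. The corresponding ratios for the transferrin receptor were 3.33 to 6.33 in WT and 1.87 to 4.31 in KO, those for Gapdh 0.821 to 0.977 and 0.771 to 0.839, and those for beta-actin 1.24 to 1.62 and 1.15 to 1.25. The summed level of the 9 measured hepatocyte markers was 65400 to 73500 on every array, but 2 of the 9 were called higher and 4 lower in untreated KO, and 0 higher and 3 lower in KO with ethanol. Hnf4a, a transcription factor of hepatocyte identity, read 1150 and 1200 in untreated WT and 467 and 430 in untreated KO (-1.36, adjusted p = 1.6e-05). The 8 measured macrophage markers summed to 4940 to 5980 without ethanol and 6790 to 8610 with it, most of which was Cd14 (3830 to 6100). With ethanol 1 of the 8 was called higher and 0 lower in WT, where 5 lay below 0, and 3 were called higher and 0 lower in KO. In untreated KO 1 macrophage marker was called higher and 3 lower. The 6 measured markers of B and plasma cells, the latter also rich in ER, summed to 221 to 277 in WT and 382 to 1010 in KO, with 1 of them below 16 on every array. The 4 measured cholangiocyte markers summed to 312 to 459 in WT and 769 to 1120 in KO. The part of these differences in the results below was not tested. In such bulk RNA, fewer cells of a type and less RNA per cell cannot be told apart.

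**Figure D1:**
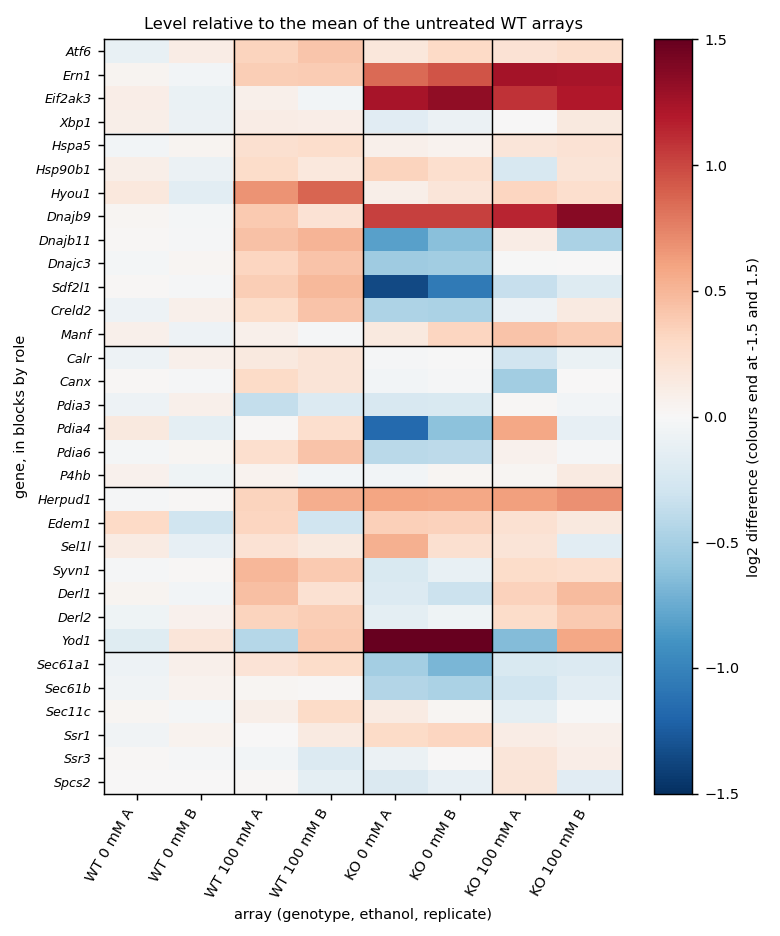
Level of each of the 32 tested genes (rows, in 5 blocks by role) on each of the 8 arrays (columns), as the log2 difference from the mean of the untreated WT arrays. Red is higher and blue lower, and the colours end at -1.5 and 1.5, so that Yod1 in untreated KO lies at or beyond the end of the scale. Ern1, Eif2ak3 and Dnajb9 are red on all 4 KO arrays, and Sdf2l1, Sec61a1 and Sec61b are blue there.

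Ethanol raised 8 of the 32 tested genes in WT hepatocytes and lowered none. This is 25% of the members called higher, against 1.67% of all tested probe sets called higher and 3.91% called lower in this comparison. A gene was called when limma's adjusted p (Benjamini-Hochberg over all 19814 probe sets) was under 0.05, and differences are on the log2(intensity + 16) scale with the standard error (SE) of the fit. The changes were small, between 1.19-fold and 1.71-fold. The median difference of the 32 genes was 0.23, and 28 of them lay above 0, against a median of 0.014 over all probe sets. The arrays fell into 2 classes by how bright the bioC spike-in was relative to bioB. The A pair of WT arrays shared a class and the B pair shared the other, and both pairs gave a member median of 0.25. In KO the ratio was 2.98 and 3.14 on untreated A and B, but 1.06 and 3 on ethanol A and B. In untreated WT it was 0.993 and 2.71. The comparisons of ethanol in KO and of genotype in untreated cells were therefore not balanced on this class.

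The largest response belonged to Hyou1, an Hsp70-like chaperone that exchanges nucleotide on BiP. Its normalised intensity was 418 and 334 on the untreated WT arrays and 608 and 697 on the ethanol WT arrays, a rise of 0.77 ± 0.13 (adjusted p = 0.0094). The groups did not overlap. The Hsp70 chaperone BiP itself, encoded by Hspa5, read 9840 and 10400 without ethanol and 12000 and 12100 with it, a rise of 0.25 ± 0.057 (adjusted p = 0.034). Dnajc3, a J-domain co-chaperone of BiP, went from 1210 and 1260 to 1550 and 1670, a rise of 0.38 ± 0.078 (adjusted p = 0.025). Both ethanol arrays lay above both untreated arrays for these 2 genes as well. With 2 arrays a group, such separation was also seen in members not called, such as Hsp90b1 (adjusted p = 0.42), Xbp1 (0.54) and Sel1l (0.65). Its share over all probe sets is not given here. Lack of overlap, here and below, is therefore a description and adds no support to a call. The other 6 of the 9 chaperones of the Hsp70 and Hsp90 group did not pass the test, and all 6 had differences above 0. The largest were Dnajb11, the co-chaperone ERdj3, at 0.48 (adjusted p = 0.16), Sdf2l1, a partner of ERdj3, at 0.43 (adjusted p = 0.17), and Creld2, an ER stress-inducible ER protein, at 0.35 (adjusted p = 0.074). Dnajb9, the co-chaperone ERdj4, stood at 0.3 (adjusted p = 0.1), Hsp90b1, the ER paralogue of Hsp90, at 0.22 (adjusted p = 0.42), and Manf, a secreted ER stress protein, at 0.03 (adjusted p = 0.93).

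Of the 7 tested ERAD genes, 3 rose with ethanol in WT cells. Herpud1, a membrane scaffold of the ubiquitin ligase complex, read 552 and 563 without ethanol and 705 and 820 with it, a rise of 0.44 ± 0.097 (adjusted p = 0.033). Syvn1, which encodes the ligase HRD1 itself, went from 619 and 634 to 890 and 828, a rise of 0.44 ± 0.092 (adjusted p = 0.025). Derl2, one of the derlins that help proteins leave the ER, went from 2870 and 3130 to 3770 and 3870, a rise of 0.35 ± 0.075 (adjusted p = 0.031). In each of the 3 genes the ethanol arrays were higher than the untreated ones without overlap. The ERAD members not called were Derl1 at 0.34 (adjusted p = 0.096), the HRD1 adaptor Sel1l at 0.18, the lectin Edem1 at 0.01 and the deubiquitinase Yod1 at -0.02. A dimmer Derl1 probe set, 1437723_s_at, was called higher (0.49, adjusted p = 0.016). Derl3 was too dim to test, with intensities between 3.86 and 66.3 over the 8 arrays.

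Among the sensors, Ern1, which encodes the kinase and ribonuclease IRE1, rose from 495 and 467 to 626 and 632 with ethanol in WT cells (0.38 ± 0.087, adjusted p = 0.037), without overlap. Atf6, the membrane-bound precursor of a transcription factor, read 218 and 258 against 303 and 323, a difference of 0.38 with an adjusted p of 0.15. Xbp1, the transcription factor made after splicing by IRE1, differed by 0.11 (95% interval -0.07 to 0.28), and its splicing was not measured here. Eif2ak3, which encodes the translation-slowing kinase PERK, differed by 0.02 (adjusted p = 0.97). Of the 6 lectin chaperones and disulfide isomerases, Pdia6 rose from 2090 and 2170 to 2540 and 2870 (0.34 ± 0.08, adjusted p = 0.039). The lectin chaperones Canx and Calr stood at 0.24 and 0.18, the isomerases Pdia4 and P4hb at 0.13 and 0, and Pdia3, the isomerase that works with both lectins, at -0.28 (adjusted p = 0.076). None of the 6 tested translocon, translocon-associated and signal peptidase genes was called with ethanol in WT, and they lay between -0.12 for Ssr3 and 0.24 for Sec61a1.

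The 9 tested genes with an ER stress response element of either form, whose sequences are shown above in part, had a median difference of 0.34 with ethanol in WT, 5 were called higher and all 9 lay above 0. The 17 tested genes with a promoter entry but neither form had a median of 0.07, 2 called higher and 13 above 0, and the 6 without a promoter entry had a median of 0.29. With ethanol in KO, carriers and genes without the element had the opposite order by median and by the share above 0. The order by the share called higher was the same as in WT. Carriers had a median of 0.14, with 4 of 9 called higher and 6 above 0. The 17 without the element had a median of 0.21, with 5 called higher, 1 lower and 12 above 0. The 6 without an entry had a median of 0.16, with 2 called higher. These values are a description without a test.

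The count of 8 in WT cells rested on few arrays. It fell to 0 without untreated WT B or ethanol WT B, and to 1 without untreated WT A, ethanol WT A, untreated KO A or untreated KO B, and it was 13 (12 higher and 1 lower) without either ethanol KO array. Averaging the probe sets of each gene left 0 called higher and 1 lower, namely Sec61a1, and keeping unusable values left 1 higher and 1 lower, whereas the median of the members stayed between 0.1 and 0.27 in every alternative fit.

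**Figure D2:**
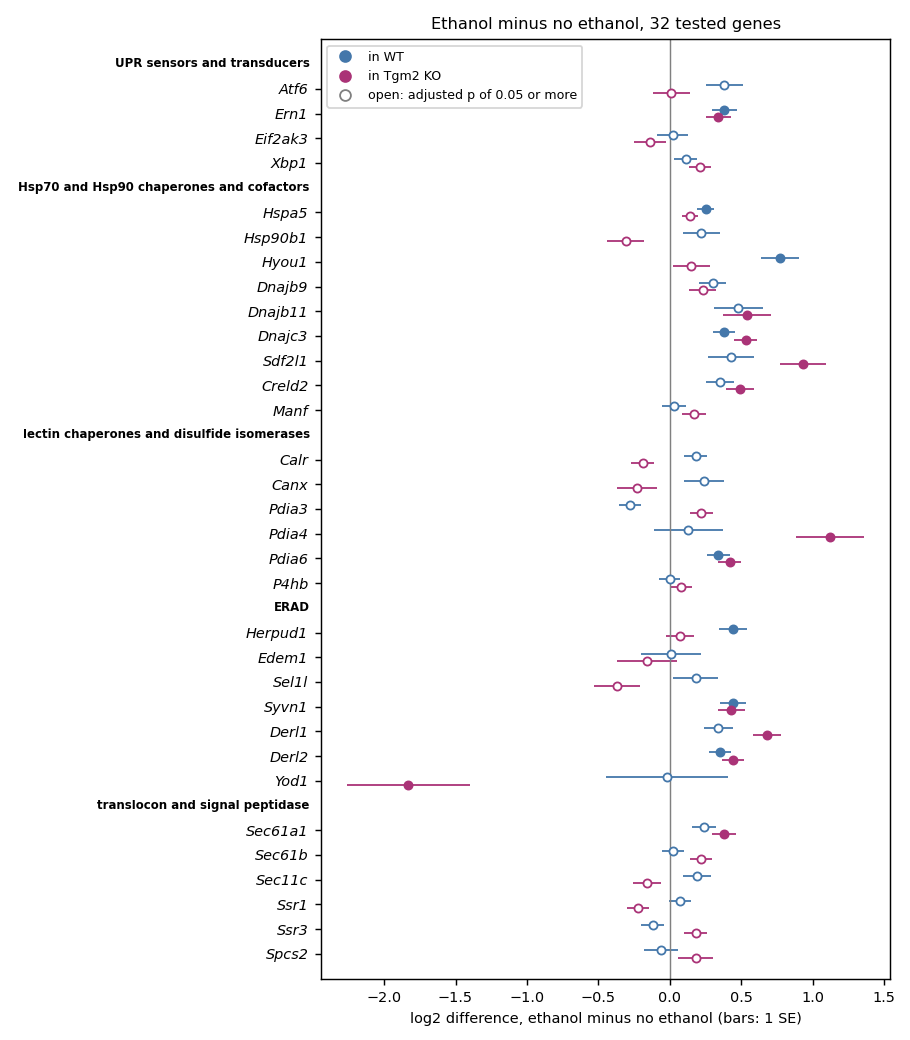
Log2 difference between ethanol-treated and untreated cells for the 32 tested genes, in blocks by role, in WT (blue) and KO (purple). Bars are 1 SE from the limma fit to 8 arrays, filled points have an adjusted p under 0.05 and open points do not. WT points lie between -0.28 and 0.77, and KO points between -1.83 for Yod1 and 1.12 for Pdia4.

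In KO hepatocytes ethanol raised 11 of the 32 genes and lowered 1. The shares were 34.4% higher and 3.12% lower, against 11.4% of all probe sets called higher and 10.8% called lower. The median difference of the members was 0.18, against -0.005 over all probe sets, and 23 of 32 lay above 0. Under trimmed-mean scaling the calls were 11 higher and 4 lower. Of the 8 genes that rose in WT, 5 also rose in KO: Ern1, Dnajc3, Pdia6, Syvn1 and Derl2. They are 62.5% of the genes called higher in WT and 45.5% of those called higher in KO. The ethanol comparisons of WT and KO share no arrays, but the SE of each gene came from the same fit to all 8 arrays. For Derl2, for example, the SE was 0.075 in WT and in KO. The calls in WT and KO are therefore not independent of each other. The corresponding overlap over all tested probe sets is not given here, so these shares are a description without a background.

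Pdia4, a disulfide isomerase also known as ERp72, rose most in KO cells. It read 176 and 265 on the untreated KO arrays and 626 and 379 on the ethanol KO arrays, a rise of 1.12 ± 0.24 (adjusted p = 0.012). The groups did not overlap, but the ethanol arrays differed widely, and the call was lost without untreated KO A or without ethanol KO A. Sdf2l1 read 79 and 100 without ethanol and 175 and 195 with it, a rise of 0.93 ± 0.16 (adjusted p = 0.0037). Its partner Dnajb11 read 290 and 330 against 562 and 371, a rise of 0.54 ± 0.17 (adjusted p = 0.048). Neither gene overlapped between the groups, and ethanol KO A was again the higher of the 2 ethanol arrays for Dnajb11. The call for Dnajb11 was kept in 7 of 21 alternative fits and was lost without any one array other than ethanol KO B. Dnajc3 rose from 845 and 857 to 1230 and 1240 (0.53 ± 0.078, adjusted p = 0.0021) by its brightest probe set, but the average of its 5 probe sets stood at -0.12, and 1449373_at was called lower at -0.98 (adjusted p = 0.042). Creld2 rose from 1030 and 1020 to 1350 and 1560 (0.49 ± 0.099, adjusted p = 0.0079). Both are from the same chaperone group, in which 4 of 9 genes were called, all higher.

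Derl1, another derlin, rose in KO cells from 733 and 671 to 1080 and 1180 (0.68 ± 0.1, adjusted p = 0.0023). The other ERAD genes called higher were Derl2 at 0.44 (adjusted p = 0.0042) and Syvn1 at 0.43 (adjusted p = 0.011). In these 3 genes every ethanol array exceeded every untreated one. Pdia6 rose by 0.42 (adjusted p = 0.0065) and Ern1 by 0.34 (adjusted p = 0.023). Sec61a1, which encodes the channel-forming subunit of the translocon, rose from 1720 and 1520 to 2090 and 2120 (0.38 ± 0.085, adjusted p = 0.013). By the brightest probe sets, Sec61a1 was the only called member of the translocon and signal peptidase group. Another probe set of Ssr1, 1417764_at, was called higher at 0.31 (adjusted p = 0.027). The single lower call was Yod1, at 129 and 134 without ethanol and 11 and 47.4 with it, which fell by 1.83 on the log2 scale (adjusted p = 0.016). That probe set was dim, and the brightest Yod1 probe set, left out because ethanol WT B had no usable value, read 165 and 210 against 149 and 188 and was not called when kept (-0.14, adjusted p = 0.7).

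By the brightest probe sets, members not called with ethanol in KO cells included Hyou1 (0.15), Hspa5 (0.14) and Herpud1 (0.07), which were called in WT. The other Herpud1 probe set, 1435626_a_at, went the opposite way. It was called higher in KO (0.57, adjusted p = 0.0083) and stood at -0.1 in WT (adjusted p = 0.74). Among the other sensors and chaperones, differences were 0.21 for Xbp1, 0.01 for Atf6, -0.14 for Eif2ak3, 0.23 for Dnajb9, 0.17 for Manf and -0.31 for Hsp90b1 (adjusted p = 0.11). Canx and Calr stood at -0.23 and -0.19, Pdia3 at 0.22 and P4hb at 0.08. Sel1l stood at -0.37 (adjusted p = 0.14), Edem1 at -0.16, and Sec61b, Ssr3, Spcs2, Sec11c and Ssr1 lay between -0.22 and 0.22. A dimmer Sel1l probe set, 1425188_s_at, was called lower (-0.72, adjusted p = 0.023). The dim 1430692_a_at and 1453559_a_at of Sel1l stood at 0.22 and 0.5 and were not called. Without untreated KO A the 12 calls were reduced to 4, and without untreated KO B to 6.

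**Figure D3:**
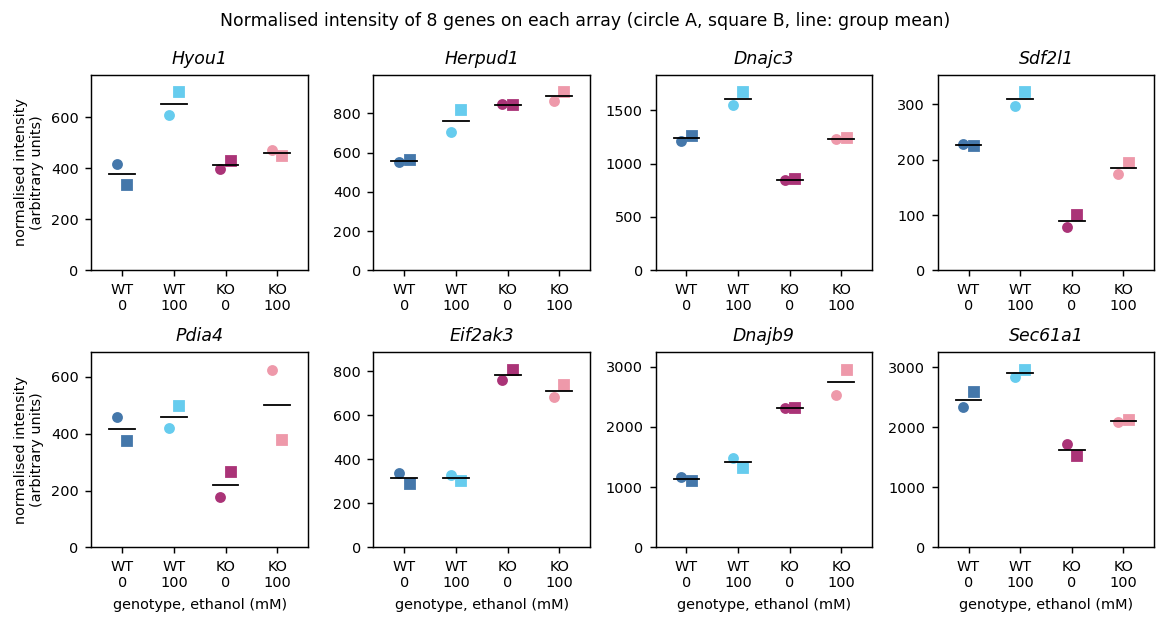
Normalised intensity (arbitrary units, axis from 0) of 8 genes on each array by group, with circles for A, squares for B and a line at the group mean. Hyou1 is highest in ethanol WT (608 and 697), Eif2ak3 and Dnajb9 are higher on all KO arrays than on all WT arrays, and Sdf2l1 is lowest in untreated KO (79 and 100). Intensities of different genes come from different probes and are not comparable.

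The difference between the 2 ethanol effects was tested directly as an interaction, defined as the effect in KO minus the effect in WT. Of the 32 members, 1 was called higher (3.12%) and 0 lower, against 3.57% and 1.78% of all probe sets. At an unadjusted p under 0.05, 14 of the 32 passed in limma, or 43.8% against 22.5% of all probe sets. The called gene was Pdia3. In WT it read 3680 and 4100 without ethanol and 3030 and 3360 with it, and in KO 3280 and 3320 without ethanol and 3920 and 3770 with it. Its values with ethanol were lower in WT and higher in KO, and the interaction was 0.5 ± 0.11 (adjusted p = 0.035). For Hyou1 the interaction was -0.62 ± 0.18 (adjusted p = 0.085), for Pdia4 0.98 ± 0.35 (adjusted p = 0.14), for Sdf2l1 0.51 ± 0.22 (adjusted p = 0.21) and for Herpud1 -0.37 ± 0.14 (adjusted p = 0.16). A gene called in only 1 genotype is therefore not shown to respond differently there. The call for Pdia3 was lost without untreated WT A or B, ethanol WT A or B, or untreated KO A or B, and 8 members were called without ethanol KO B. Under trimmed-mean scaling 0 were called higher and 1 lower.

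Loss of Tgm2 was associated with changes in both directions among these genes. In untreated cells 6 of 32 were higher in KO (18.8%) and 9 lower (28.1%), against 15.3% of all probe sets called higher and 16.9% lower. With ethanol, 6 were higher (18.8%) and 10 lower (31.2%), against 14% and 15.1%. The higher shares were near the background in both comparisons. The medians of the members were -0.02 untreated and -0.04 with ethanol, against -0.035 and -0.047 over all probe sets. Scaling the arrays to a common trimmed mean in place of quantile normalisation changed the split untreated to 10 higher and 8 lower. With ethanol it raised the median of all probe sets by 0.11 and gave 4 higher and 10 lower.

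Both kinase sensors were more abundant in KO. Eif2ak3 read 338 and 290 in untreated WT and 760 and 809 in untreated KO, a difference of 1.28 ± 0.11 (adjusted p = 5.1e-05). With ethanol it read 331 and 304 in WT and 682 and 738 in KO, a difference of 1.12 ± 0.11 (adjusted p = 0.00011). Every KO array lay above every WT array. Ern1 read 495 and 467 in untreated WT against 881 and 941 in untreated KO (0.9 ± 0.087, adjusted p = 8.4e-05), and with ethanol 626 and 632 against 1160 and 1150 (0.86 ± 0.087, adjusted p = 0.00011). The KO arrays were again all above the WT arrays. Atf6 and Xbp1 were not called in either comparison, with differences of 0.24 and -0.13 untreated and -0.13 and -0.03 with ethanol.

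The Hsp70 and Hsp90 group was split by genotype. Dnajb9 read 1160 and 1110 in untreated WT and 2320 on both untreated KO arrays, a difference of 1.02 ± 0.093 (adjusted p = 6e-05), and 1490 and 1320 against 2530 and 2950 with ethanol (0.95 ± 0.093, adjusted p = 9.3e-05). In contrast, Sdf2l1 read 228 and 224 in untreated WT and 79 and 100 in untreated KO, and was lower by the largest amount of any member (-1.21 ± 0.16, adjusted p = 0.00044). With ethanol Sdf2l1 read 297 and 322 in WT and 175 and 195 in KO (-0.7 ± 0.16, adjusted p = 0.0094). Neither gene overlapped between genotypes. Dnajb11 read 526 and 515 in untreated WT and 290 and 330 in untreated KO (-0.72 ± 0.17, adjusted p = 0.0097), and stayed lower with ethanol (-0.66 ± 0.17, adjusted p = 0.017). Dnajc3 differed by -0.53 untreated (adjusted p = 0.00085) and by -0.38 with ethanol (adjusted p = 0.0059). Creld2 differed by -0.46 (adjusted p = 0.006) and -0.33 (adjusted p = 0.034). All 3 of these stress-inducible cofactors had both KO arrays below both WT arrays in each comparison. Hyou1 differed by 0.14 untreated (adjusted p = 0.47) and by -0.49 with ethanol (adjusted p = 0.02), and Manf by 0.23 (adjusted p = 0.062) and 0.37 (adjusted p = 0.0098). By its brightest probe set Hspa5 was not called, at 0.07 (95% interval -0.06 to 0.2) and -0.05 (-0.17 to 0.08). Neither was Hsp90b1, at 0.29 and -0.24. Untreated, a dimmer probe set of each was called higher in KO. These were 1427464_s_at of Hspa5 (0.41, adjusted p = 0.04) and 1438040_a_at of Hsp90b1 (0.44, adjusted p = 0.0026). With ethanol they stood at 0.07 (adjusted p = 0.75) and 1.15 (adjusted p = 1.1e-05).

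Among the lectin chaperones and isomerases, 3 of 6 were lower in untreated KO and 0 higher. Pdia4 read 458 and 374 in WT and 176 and 265 in KO (-0.89 ± 0.24, adjusted p = 0.021), and with ethanol 419 and 496 against 626 and 379, which overlapped (0.09, adjusted p = 0.81). Pdia6 read 2090 and 2170 against 1600 and 1620 untreated (-0.4 ± 0.08, adjusted p = 0.0046) and differed by -0.32 with ethanol (adjusted p = 0.016). Pdia3 differed by -0.23 untreated (adjusted p = 0.048) and by 0.27 with ethanol (adjusted p = 0.031). Both comparisons of Pdia3 were without overlap and had opposite signs, and they were called in 8 of 21 and 11 of 22 alternative fits. With ethanol Calr read 6460 and 6680 in WT and 4750 and 5420 in KO (-0.37 ± 0.08, adjusted p = 0.0074), and Canx read 4260 and 3980 against 2410 and 3480 (-0.5 ± 0.14, adjusted p = 0.022). Untreated, Calr stood at -0.01 and Canx at -0.03, neither of them called. P4hb lay at 0 untreated and 0.08 with ethanol, and was called higher untreated under trimmed-mean scaling (0.46, adjusted p = 0.01).

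Of the ERAD genes, 2 of 7 were higher in untreated KO. Herpud1 read 552 and 563 in WT and 846 and 843 in KO (0.59 ± 0.097, adjusted p = 0.0016), and with ethanol 705 and 820 against 866 and 908 (0.22 ± 0.097, adjusted p = 0.12). Yod1 read 21.4 and 32.3 against 129 and 134 untreated (1.8 ± 0.43, adjusted p = 0.011), and its brightest probe set, when kept, gave 0.4 (adjusted p = 0.21). With ethanol 0 of the 7 ERAD genes passed in limma by the brightest probe set, and 0 of them had an unadjusted p under 0.05, the lowest being that of Herpud1. The brightest probe sets of Edem1, Sel1l, Syvn1, Derl1 and Derl2 were not called in either comparison. Some dimmer ones were called untreated, in Derl1 (-0.56 and 0.29) and Sel1l (0.62). With ethanol, dimmer ones were called higher in Sel1l (1.13 and 1.27), Derl2 (0.46) and Herpud1 (0.52, adjusted p = 0.0092).

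The brightest probe sets of both measured Sec61 channel subunits were lower in KO. Sec61a1 read 2330 and 2580 in untreated WT and 1720 and 1520 in untreated KO (-0.59 ± 0.085, adjusted p = 0.00073), and with ethanol 2840 and 2960 against 2090 and 2120 (-0.46 ± 0.085, adjusted p = 0.0033). Sec61b, the small tail-anchored subunit, read 2970 and 3210 against 2280 and 2220 untreated (-0.45 ± 0.076, adjusted p = 0.0017), and 3150 and 3120 against 2500 and 2760 with ethanol (-0.25 ± 0.076, adjusted p = 0.032). Both subunits were lower on every KO array than on every WT array of the same treatment. The direction for Sec61a1 with ethanol depended on the probe sets used: the average of its probe sets differed by 0.63 in place of -0.46, and 2 of its other probe sets were called higher at 2.04 and 2.37. By their brightest probe sets, subunits of the translocon-associated complex had no common direction. Ssr1 differed by 0.31 ± 0.077 untreated (adjusted p = 0.013) and by 0.02 with ethanol (adjusted p = 0.87). Another Ssr1 probe set, 1417764_at, was called higher in KO untreated (0.47, adjusted p = 0.0023) and with ethanol (0.76, adjusted p = 0.00017). The dimmer 1441327_a_at and 1448843_at had negative differences in both comparisons and were not called. Ssr3 differed by -0.04 untreated (adjusted p = 0.72) and by 0.27 ± 0.079 with ethanol (adjusted p = 0.03), a call kept in 8 of 22 alternative fits and turned to -0.14 by averaging its probe sets. The remaining subunits, which are not among the 34 genes, stood at -0.79 for Ssr2 (adjusted p = 0.00014) and -0.19 for Ssr4 (adjusted p = 0.11) untreated, and at 0.01 and -0.09 with ethanol. The signal peptidase subunits Sec11c and Spcs2 were not called in either comparison, at 0.08 and -0.17 untreated and -0.27 and 0.08 with ethanol. With ethanol, 5 of the 9 tested genes with an ER stress response element were lower in KO and 0 higher, with a median of -0.32, against 3 lower and 5 higher of the 17 without one, with a median of 0.08. Untreated, the medians were -0.03 with 3 of 9 lower and -0.04 with 5 of 17 lower. The 6 genes without a promoter entry had medians of 0.11 untreated and -0.2 with ethanol, and no class was tested against another.

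Across the alternative fits, the genotype differences of Eif2ak3 were called in all 21 run for untreated cells and all 22 run with ethanol. Ern1 and Dnajb9 were called in all 21 and in 21 of 22, and Sdf2l1 in all 21 and in 20 of 22. The brightest-probe-set call of Sec61a1 was kept in all 21 and in 20 of 22, but of the 2 exceptions with ethanol, averaging its probe sets turned the difference from -0.46 to 0.63. Without ethanol WT B, the count of members called with ethanol dropped from 16 to 5.

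**Figure D4:**
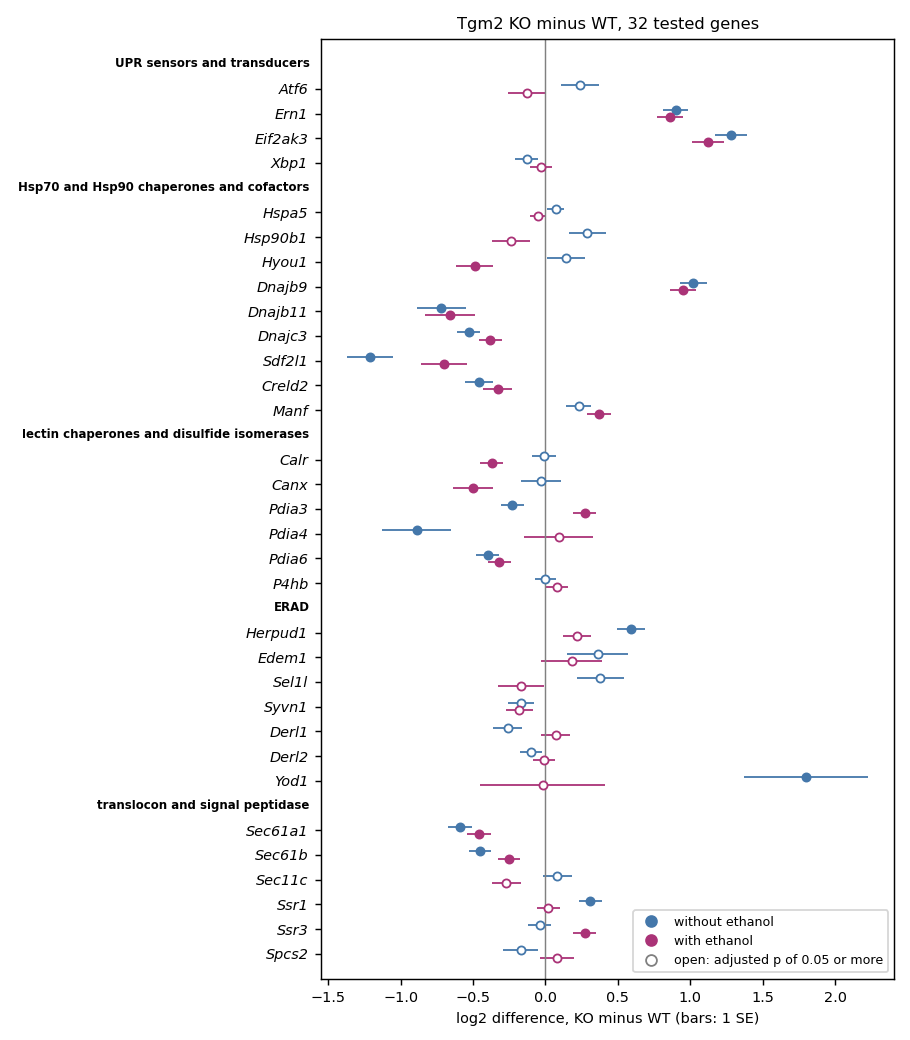
Log2 difference between KO and WT for the 32 tested genes, in blocks by role, without ethanol (blue) and with ethanol (purple). Bars are 1 SE from the limma fit to 8 arrays, filled points have an adjusted p under 0.05 and open points do not. The untreated differences run from -1.21 for Sdf2l1 to 1.8 for Yod1, and those with ethanol from -0.7 for Sdf2l1 to 1.12 for Eif2ak3.

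Several genes had further probe sets, and these did not always follow the brightest one. There were 42 other tested probe sets of 20 genes. With ethanol in WT, 24 of the 42 had the same sign as the brightest probe set of their gene, and their median difference was 0. Of the 42, 1 was called higher and 3 lower, beside 1.67% and 3.91% of all probe sets. Of the 14 that belonged to called genes, 0 were called the same way. For KO against WT with ethanol, 18 of 42 had the same sign. Of the 20 that belonged to called genes, 7 were called the same way as the brightest probe set and 3 the opposite way. The widest disagreement was in Sec61a1, whose brightest probe set, 1416189_a_at, was the one described above. In WT, probe set 1416191_at read 620 and 586 without ethanol and 196 and 206 with it, and in KO it read 469 and 511 without ethanol and 1230 and 996 with it. It was thus lowest in ethanol WT and highest in ethanol KO, with an ethanol difference in WT of -1.51 ± 0.12 (adjusted p = 0.00029) and a KO difference with ethanol of 2.37 ± 0.12 (adjusted p = 1.8e-06). A second probe set, 1416190_a_at, gave -1.33 and 2.04 in the same comparisons. For untreated KO against WT, 2 other probe sets of Sec61a1 were called lower (-0.61 and -0.84), like the brightest.

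Other members had probe sets with the same lowest and highest groups. For Hsp90b1, 1438040_a_at read 1380 and 1420 in WT without ethanol and 998 and 997 with it, and 2000 and 1810 in KO without ethanol and 2290 and 2180 with it. Its difference between KO and WT with ethanol was 1.15 ± 0.079 (adjusted p = 1.1e-05), whereas the brightest probe set gave -0.24. With ethanol in WT it was called lower (-0.48, adjusted p = 0.0086), whereas the brightest gave 0.22. For Canx, 1422845_at gave 0.75 (adjusted p = 0.00054) where the brightest probe set was called lower at -0.5. For Xbp1, 1420886_a_at rose with ethanol in KO by 0.43 (adjusted p = 0.012) and was higher in KO with ethanol by 0.59 (adjusted p = 0.0016). In each of these probe sets the mean was lowest in ethanol WT and highest in ethanol KO. Of the 4 control ratios of 3′ to 5′ signal, those for pyruvate carboxylase and beta-actin were highest in ethanol WT and lowest in ethanol KO. For beta-actin, ethanol arrays stood at 1.62 and 1.48 in WT and at 1.23 and 1.15 in KO, against 1.24 to 1.33 on untreated arrays. The ratio for Gapdh was highest in ethanol WT and lowest in untreated KO, and that for the transferrin receptor had no such order. Their part in these values was not tested.

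**Figure D5:**
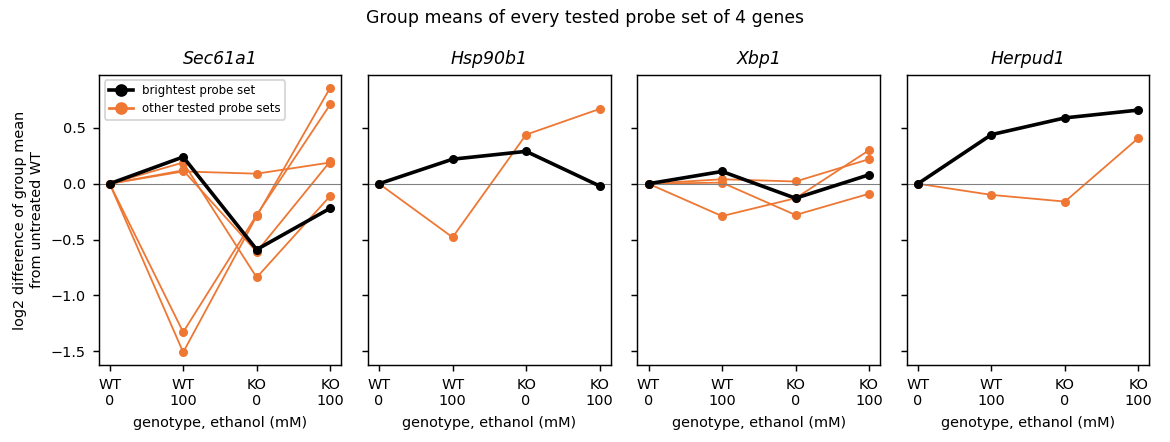
Group means of every tested probe set of Sec61a1, Hsp90b1, Xbp1 and Herpud1, as log2 differences from untreated WT, for WT and KO at 0 and 100 mM ethanol. Black lines are the brightest probe set of each gene and orange lines the others. In Sec61a1, 2 orange lines fall to -1.33 and -1.51 in ethanol WT and reach 0.71 and 0.86 in ethanol KO, unlike the brightest.

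Genes of the same pathway outside the 34 are given by counts, to be read against the shares of all probe sets called higher and lower: 1.67% and 3.91% for ethanol in WT, 11.4% and 10.8% for ethanol in KO, 15.3% and 16.9% for KO against WT untreated, and 14% and 15.1% with ethanol. Of 15 tested regulators of the unfolded protein response, 2 rose with ethanol in WT and 0 fell, and 5 rose and 1 fell in KO. Ddit3, which encodes the stress transcription factor CHOP, read 225 and 286 in untreated WT and 527 and 617 in ethanol WT (1.12 ± 0.15, adjusted p = 0.003), and 480 and 591 in untreated KO against 1150 and 1040 in ethanol KO (1.02 ± 0.15, adjusted p = 0.002). Creb3l3, a liver-enriched ER-bound transcription factor, rose by 0.63 in WT (adjusted p = 0.0045) and by 0.48 in KO (adjusted p = 0.0058). The pseudokinase gene Trib3 rose by 0.88 in KO (adjusted p = 0.00082) and stood at 0.3 in WT (adjusted p = 0.15), and the difference between these effects was not called (0.58, adjusted p = 0.053). Against WT, Ddit3 was higher in KO by 1.03 untreated and 0.92 with ethanol, and Ppp1r15a, a phosphatase subunit that reverses the translational block, by 0.94 and 1.33. The regulators were 4 higher and 2 lower in untreated KO, and 5 higher and 1 lower with ethanol.

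Of 27 other ER chaperones and oxidoreductases, 4 (14.8%) were higher and 11 (40.7%) lower in untreated KO, and 3 (11.1%) higher and 9 (33.3%) lower with ethanol. The disulfide-generating oxidase gene Ero1a read 1660 and 1650 in untreated WT and 6700 and 6530 in untreated KO (1.99 ± 0.064, adjusted p = 8.6e-08), and differed by 1.92 with ethanol. Erp29, an ER-resident folding factor, differed by -1.02 in untreated KO (adjusted p = 0.0011), and Sil1, a nucleotide exchange factor of BiP, stood at -0.8 (adjusted p = 0.00033). With ethanol they differed by -0.85 (adjusted p = 0.0035) and -0.7 (adjusted p = 0.00081). Of 25 other translocation and N-glycosylation genes, 2 (8%) were higher and 9 (36%) lower in untreated KO, and 2 (8%) higher and 11 (44%) lower with ethanol. The oligosaccharyltransferase subunit Ddost read 1370 and 1350 in WT and 673 and 714 in KO without ethanol, and 1490 and 1320 in KO with it. It differed by -0.96 in untreated KO (adjusted p = 5.6e-05) and rose by 1 with ethanol in KO (adjusted p = 0.00031).

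In the ethanol comparisons, 1 of these 27 chaperones (3.7%) rose and 1 fell in WT, and 9 (33.3%) rose and 2 (7.41%) fell in KO. Of the 25 translocation and glycosylation genes, 3 (12%) rose and 0 fell in WT, and 5 (20%) rose and 1 (4%) fell in KO. Of 23 other ERAD genes, 1 (4.35%) rose and 0 fell in WT, and 6 (26.1%) rose and 2 (8.7%) fell in KO. Selenos, a membrane protein that recruits p97, was the ERAD gene that rose in WT (0.46 ± 0.079, adjusted p = 0.01), and it also rose in KO (0.31 ± 0.079, adjusted p = 0.021). The same 23 ERAD genes were 7 higher and 7 lower in untreated KO, and 2 higher and 3 lower with ethanol. Of 20 genes for export by COPII vesicles and retrieval to the ER, 1 rose and 2 fell with ethanol in WT, 6 rose and 1 fell in KO, 3 were higher and 7 lower in untreated KO, and 7 higher and 2 lower with ethanol. Kdelr1, a receptor that returns escaped ER chaperones, rose by 0.39 in WT (adjusted p = 0.015) and by 0.37 in KO (adjusted p = 0.0071) and was lower in KO than in WT by both comparisons (-0.59 and -0.61). These lists were described by counts and were not tested as sets.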

How the data were processed

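Biotin-labelled cRNA of 8 samples was hybridised to 1-colour Affymetrix arrays, per the labels' protocols. The authors deposited 1 linear intensity per probe set and array. How they summarised and scaled it, and on which build, is not given in the sources used here. The arrays had not been brought to a common level. On 1 array, 5403 values were exact zeros and 7 impossible as intensities (under 0.01 or extremely large), and these 5410 probe sets were dropped, as were 64 control probe sets, which left 39627.

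Intensities were quantile normalised and transformed as log2(intensity + 16), a scale that understates changes of dim genes. Probe sets in the upper 50% by mean (5.4 or more on the log2 scale) were fitted with limma 3.58.1 in R 4.3.3, with 4 group means, an intensity trend, 4 residual and 5.43 prior degrees of freedom, and Benjamini-Hochberg adjustment within each of 5 contrasts. The labels do not say that A and B are independent cultures, so p-values reflect only the spread between these arrays, and that spread may be technical. Depth does not apply to arrays, and their number limits the precision.

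All 34 members are named, each by its brightest probe set usable on every array. Of the other pathway genes, up to 3 called genes per list and contrast with the smallest adjusted p could be named. Hnf4a, Cd14, Ssr4 and some further contrasts of named genes were added after their values were seen. Symbols are those of the platform annotation, and promoters come from the RefSeq table of GRCm38.p6, matched by symbol. The members, lists, tests and alternatives were chosen with earlier results of these data known. The fit was also run on simulated data with independent noise on every array. Its outcome is not given here and adds no support to the calls, since noise shared between arrays was not simulated. Alternatives changed the offset, filter, normalisation, variance prior, replicate block, arrays used, grouping of the ethanol B arrays, spike-in batch term (arrays split by bioC over bioB spike-in intensity at 2), treatment of unusable values and the averaging of probe sets.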

Additional observations from a re-analysis of the deposited data

Results flagged for a closer look

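Of the 74 tested probe sets of the 34 genes, 6 had ethanol effects that differed between KO and WT (adjusted p under 0.05). The test was the limma interaction, the effect in KO minus the effect in WT. Over all tested probe sets it called 3.57% higher and 1.78% lower. The brightest probe set of Pdia3 gave 0.5 (adjusted p = 0.035). The other 5 were not the brightest of their gene. Sec61a1 gave 2.66 with 1416191_at (adjusted p = 0.00031) and 2.32 with 1416190_a_at (adjusted p = 0.0014), while its brightest probe set gave 0.13 (adjusted p = 0.55). Xbp1 gave 0.72 with 1420886_a_at (adjusted p = 0.018), Hsp90b1 0.71 with 1438040_a_at (adjusted p = 0.0093) and Herpud1 0.67 with 1435626_a_at (adjusted p = 0.047). The brightest probe sets of these 3 genes gave 0.1, -0.53 and -0.37, none of them called. All 6 differences were positive. By the brightest probe sets, 14 members had an unadjusted p under 0.05 in limma, and only 5 of these had positive differences. The pyruvate carboxylase 3′ to 5′ ratio on the ethanol arrays was 26.7 and 44.5 for WT against 4.91 and 5.45 for KO. The beta-actin ratio was 1.62 and 1.48 against 1.23 and 1.15, and the Gapdh ratio 0.977 and 0.928 against 0.826 and 0.839. The transferrin receptor ratio did not separate these arrays in the same way (3.33 and 6.33 for WT, 2.39 and 4.31 for KO). The part of these ratios in the differences was not tested.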

How the results depend on the processing

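The number of members called moved with several settings, and where the setting did not itself remove arrays the cause was not tested. For ethanol in WT (8 called), the count was 3 without a filter on dim probe sets, 5 under trimmed-mean scaling, 0 without the intensity trend, 0 with the ethanol B arrays counted as untreated, 2 with unusable values kept (1 higher, 1 lower) and 1 with probe sets averaged per gene (0 higher, 1 lower, none shared with the 8), and leaving out 1 array gave 0 to 13, the 13 being 12 higher and 1 lower. For ethanol in KO (12 called) it was 6 without the trend and 0 with the B arrays as untreated, and 4 to 17 leaving out 1 array. For KO against WT untreated (15) it was 8 with the B arrays as untreated and 10 to 18 leaving out 1 array, and with ethanol (16) it was 6 without the trend, 10 with the compared groups alone, 2 with the B arrays as untreated and 5 to 18 leaving out 1 array. For the interaction (1) it was 0 without a filter, 0 without the trend, 0 with the B arrays as untreated, 6 without both ethanol B arrays and 0 to 8 leaving out 1 array. Trimmed-mean scaling split the calls as 11 higher and 4 lower for ethanol in KO, and averaging probe sets as 9 and 6 for KO against WT with ethanol.

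The replicate block gave counts of 9, 12, 16, 16 and 1 in the order above. The deviations of same-lettered arrays correlated at 0.02 to 0.03 where untreated KO was among the compared groups, and at 0.2 to 0.3 otherwise. The letters were not taken as pairs in the main fit, but a component shared by same-lettered arrays of the other groups is not excluded. Other offsets, the upper 30% filter and the spike-in ratio as a term kept every count within 1.5 times. Without the 3 dim KO arrays, ethanol in KO, the untreated comparison and the interaction could not be computed. Of 160 single-gene results, 9 values turned sign with a call on 1 side. Averaging probe sets gave Sec61a1 -0.36 for ethanol in WT and Dnajc3 -0.12 for ethanol in KO. For KO against WT with ethanol it gave Hsp90b1 0.45, Pdia3 -0.06, Sel1l 0.53, Derl2 0.22, Sec61a1 0.63 and Ssr3 -0.14. Trimmed-mean scaling gave P4hb 0.46 untreated.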
